A study of Mus musculus with 74 samples.

Results

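The subject is a set of 9 genes that the gut epithelium uses against microbes and that mature thymic medullary epithelium also transcribes. They are Reg3g, Reg3a, Reg3b, Reg1, Reg2 and Reg4 of the Reg lectin family, the surface protein gene Lypd8, the alpha-defensin gene Defa21 and the Paneth cell lysozyme gene Lyz1. They were chosen by name, 9 of the 17853 gene symbols found across 6 count tables. Of these, 8 were listed and analysed in all 6 tables. Defa21 was listed in the 4 B6 tables only, so it has no value on NOD. The data were 74 bulk MARS-seq libraries (a method that counts tags from the 3′ end of transcripts) of sorted mTEChi, the mature, MHC class II high fraction of thymic medullary epithelium. Mice were 4 to 7 weeks old. On the C57BL/6 (B6) background the groups were Aire+/+ (n = 3), Aire+/- (n = 5) and Aire-/- (n = 4) of the null line, and wild type, heterozygote and homozygote of 3 point-mutant lines: Y86C (n = 3, 3 and 3), C313X (n = 3, 2 and 3) and C442G (n = 3, 5 and 6). On the NOD background they were wild type, +/V303M and V303M/V303M (n = 3 each), Aire+/- and Aire-/- of a null line (n = 3 each, with no wild type of that title form), wild type and +/C313Y (n = 5 and 4, with 2 of the 5 wild types, libraries 45 and 47, titled C313T), and wild type and -/C313Y, which carries the mutant allele opposite a null allele (n = 3 each). Y86C lies in the CARD domain of AIRE, C313X is a stop codon and V303M and C313Y are missense changes in the first PHD finger, and C442G lies in the second PHD finger.

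AIRE is a nuclear protein through which medullary thymic epithelium transcribes genes of many peripheral organs, so that developing T cells meet those self proteins. Reg3 lectins and alpha-defensins are secreted into the intestinal lumen, where they kill or repel bacteria. Paneth cells of the crypt base are the main source of defensins and of the Lyz1 lysozyme, while Lypd8 is a lipid-anchored protein of colon enterocytes that keeps flagellated bacteria away from the epithelium.

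All values below are CPM (counts scaled to a common library total), given as mean ± SD over libraries, and log2 changes are given ± SE. Adjusted p-values are from edgeR's quasi-likelihood test with Benjamini-Hochberg adjustment over all tested genes, and a gene was said to have risen or fallen only where the adjusted p was under 0.05. Library totals ran from 1016619 to 7225403 counts. The mature mTEC list of 16 markers summed to between 41440 and 99690 CPM in the 73 libraries with a group, and Aire itself remained transcribed in Aire-/- cells (3162 ± 364 CPM, n = 4, against 2125 ± 79.4 in wild type, n = 3), so a 3′ tag does not show the null allele. The labels number the libraries but do not state that each came from a separate animal, so the p-values measure the spread between these libraries. In sorted bulk cells, fewer cells that transcribe a gene and less RNA per cell cannot be told apart.

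Of the members, 5 lie in 1 cluster on chromosome 6. In the GENCODE annotation of GRCm38 the cluster spans chr6:78370657-78468872, 98 kb, in the order Reg3b, Reg3d, Reg3a, Reg2, Reg1 and Reg3g, all protein-coding, and Reg3d was not a member. Reg3g and Reg3d lie on the minus strand and the other 4 on the plus strand. Reg4 lies alone at chr3:98222156-98236748 (plus strand), Lypd8 at chr11:58379043-58390728 (plus), Defa21 at chr8:21025545-21026516 (plus) and Lyz1 at chr10:117287797-117292868 (minus), beside its paralog Lyz2. All 40-base words in the last 300 bases of the Reg and Lypd8 transcripts were particular to their gene. For Defa21, 69.7% of such words were shared with Defa22 or Defa35, and for Lyz1 28.4% were shared with Lyz2. The first-named transcripts of Lyz1 and Lyz2 are 92% identical. Values for Defa21 and Lyz1 are therefore uncertain as to the paralog.

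The stretches upstream of 6 members are shown because these genes sit apart in the results: Reg3b, Reg3a, Reg4 and Defa21 were nearly lost without AIRE, Reg3g, a cluster neighbour of Reg3b and Reg3a, fell in part, and Lypd8 did not fall. Each runs 5′ to 3′ from 120 to 21 bases before the RefSeq transcript start on GRCm38.p6. Capitals mark TATAAA, the core of the TATA box. The Reg3b stretch lies inside the GENCODE gene, which starts at 78370657, and 4 of its bases lie in GENCODE exons. For Lypd8 the start is the more upstream of those listed:
Reg3g (chr6:78468895-78468994, minus strand): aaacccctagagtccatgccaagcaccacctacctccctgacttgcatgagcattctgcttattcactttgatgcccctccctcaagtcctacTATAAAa
Reg3b (chr6:78370765-78370864, plus strand): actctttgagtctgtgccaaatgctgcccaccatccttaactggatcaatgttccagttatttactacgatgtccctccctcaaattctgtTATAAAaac
Reg3a (chr6:78380589-78380688, plus strand): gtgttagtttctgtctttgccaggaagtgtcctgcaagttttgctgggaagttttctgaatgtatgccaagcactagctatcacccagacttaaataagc
Reg4 (chr3:98222036-98222135, plus strand): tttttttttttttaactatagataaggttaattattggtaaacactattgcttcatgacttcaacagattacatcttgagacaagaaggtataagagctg
Defa21 (chr8:21025425-21025524, plus strand): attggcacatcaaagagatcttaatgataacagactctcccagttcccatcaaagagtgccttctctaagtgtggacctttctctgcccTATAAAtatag
Lypd8 (chr11:58378912-58379011, plus strand): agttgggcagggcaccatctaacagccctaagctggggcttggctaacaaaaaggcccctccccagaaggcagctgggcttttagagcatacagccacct

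All 9 members matched an entry of the RefSeq promoter table. TATAAA, searched on both strands of the 250 bases before the start, was present upstream of Reg3g, Reg3b, Reg1, Reg2 and Defa21, and in 12.4% of all 32851 promoters of that length. The 250 upstream bases of Reg3g and Reg3b were 68.9% identical, the highest value of the 15 Reg pairs, followed by 58.5% for Reg1 and Reg2. Reg3g and Reg3b thus share a similar upstream stretch with the same motif, and the share of the wild-type level that each kept in mutant cells is given next.

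In wild-type mTEChi of the B6 null line, Reg3g, a secreted lectin that binds peptidoglycan, stood at 1681, 1514 and 1719 CPM. Its relative Reg3b stood at 86.8, 101 and 93.8 CPM, and Reg3a at 16.0, 8.28 and 20.1 CPM. Reg3g was thus the most abundant member in 3′ tags, which are counted per transcript and not per length. Reg1 and Reg2, first known as regenerating proteins of the pancreas, stood at 61.4 ± 1.67 and 26.2 ± 8.98 CPM, and Reg4, a lectin of secretory and enteroendocrine gut cells, at 37.9 ± 12.6 CPM (n = 3). Lypd8 at 256 ± 11.5 CPM and Lyz1 at 255 ± 37.0 CPM were next to Reg3g, and Defa21 was at 14.7 ± 7.64 CPM (n = 3). Between the wild types of the 4 B6 lines Reg3g means ran from 1124 to 2741 CPM and Lypd8 means from 256 to 369 CPM. Between the 3 NOD wild-type groups Reg3g ran from 505 to 1027 CPM and Lypd8 from 83.5 to 157 CPM. Strain and table changed together there, so their parts cannot be told apart, and no level was tested across tables.

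**Figure D1:**
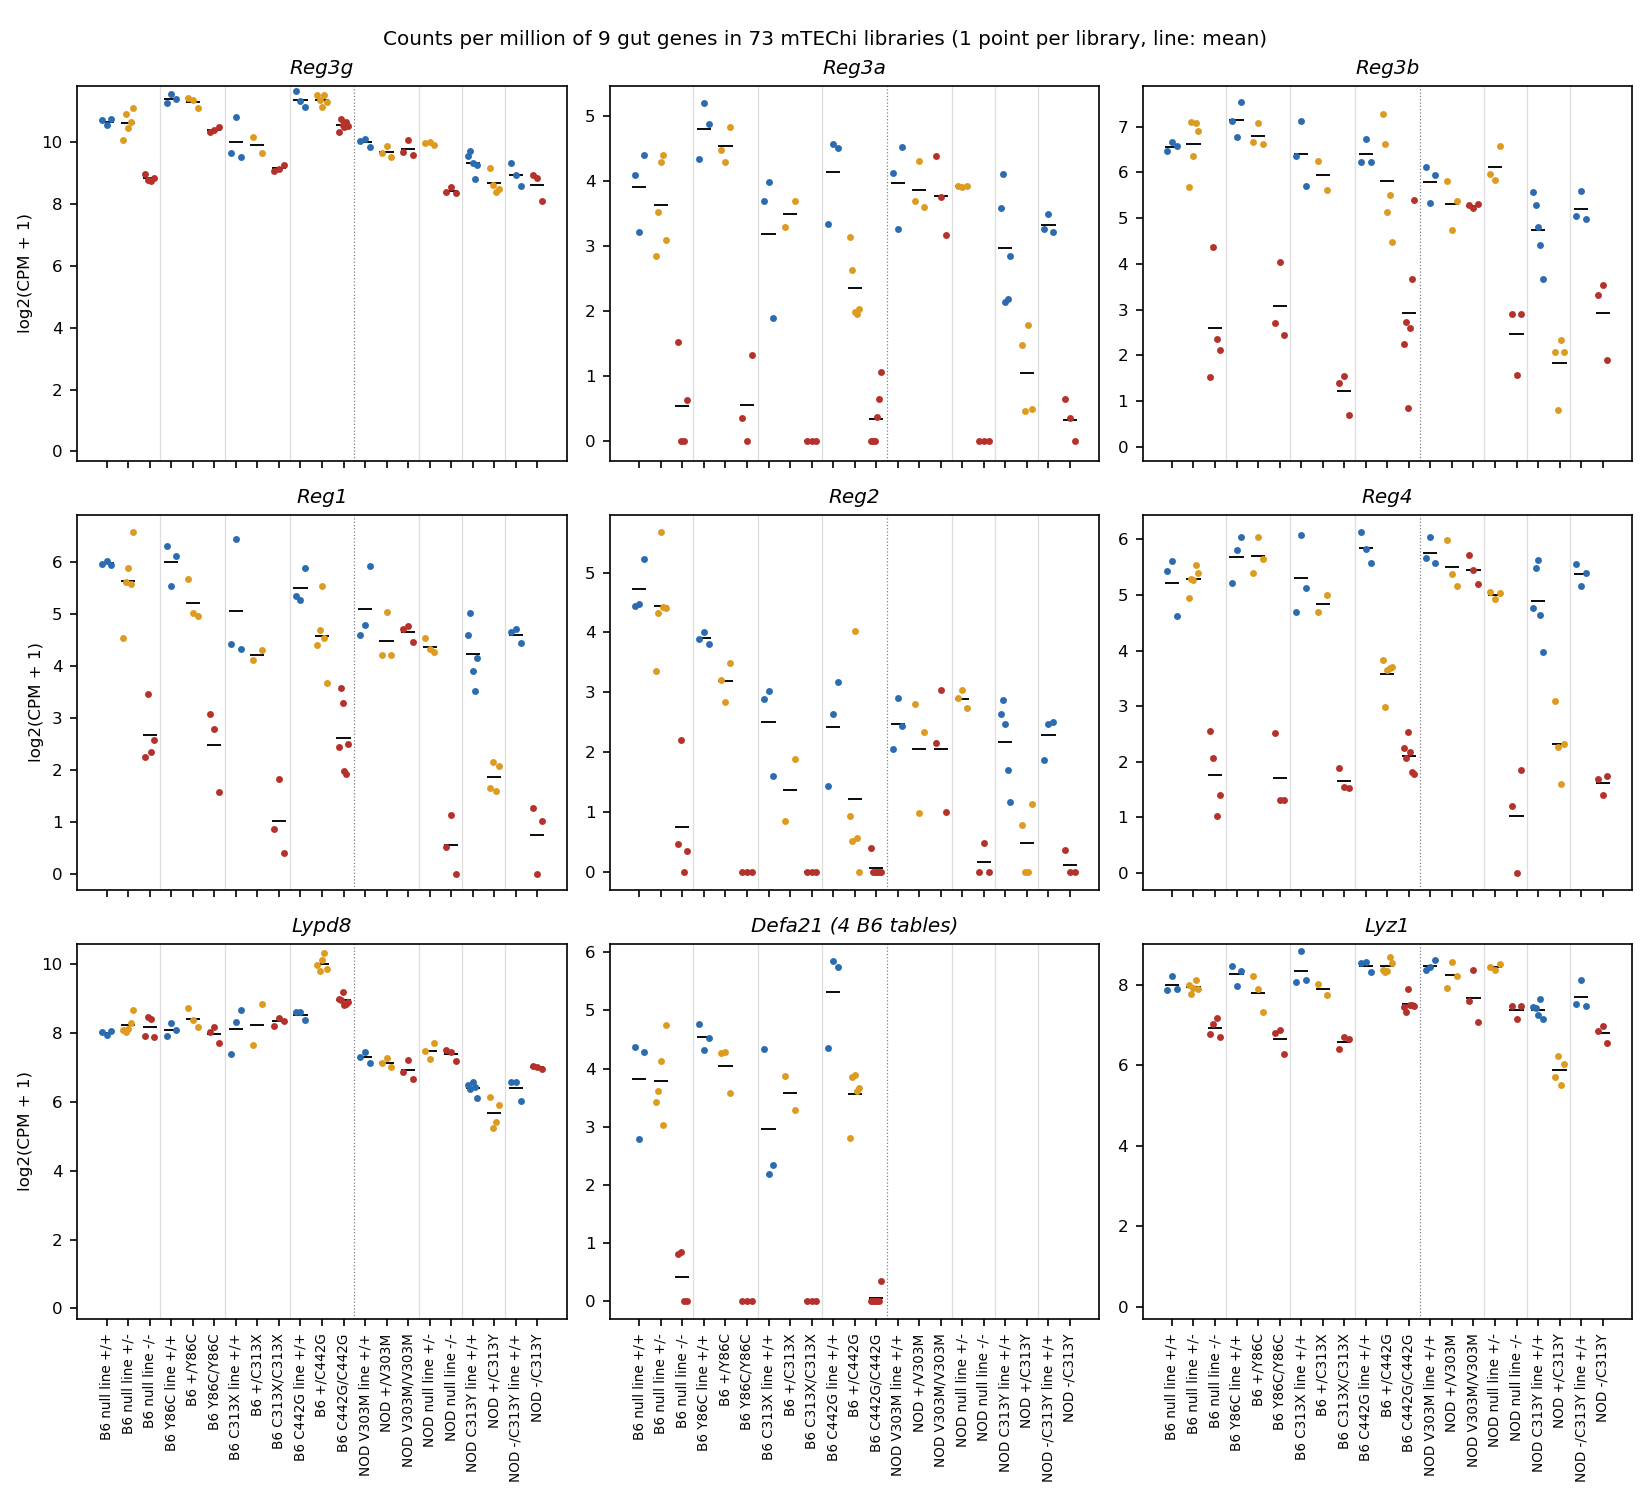
Log2(CPM + 1) of the 9 members in the 73 libraries with a group (x axis: group, with B6 lines left of the dotted line and NOD lines right; blue wild type, orange heterozygote, red homozygote, Aire-/- or -/C313Y; 1 point per library; bar: mean). Reg3a, Reg3b, Reg1, Reg2, Reg4 and Defa21 drop towards 0 in red groups other than V303M/V303M. In these groups Lyz1 and Reg3g drop in part, Reg3g more than Lyz1 in both Aire-/- groups and less in the others. Reg3g did not pass in C313X/C313X and -/C313Y. Lypd8 overlaps its comparison group or lies above it in every red group, V303M/V303M included (means of 121 against 157 CPM).

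The first question was what loss of AIRE does to each gene. In B6 Aire-/- cells 8 of the 9 members fell and Lypd8 did not change past the test, where 18.9% of 12700 tested genes were called lower. The CPM ranges of the same 8 members lay wholly below wild type, which held for 26.9% of tested genes. The median log2 change of the members was -3.63 against -0.01 for all tested genes. Reg3a dropped to 1.88, 0, 0 and 0.553 CPM in the 4 Aire-/- libraries, 4.11% of wild type (adjusted p = 7.02e-05). Reg3b dropped to 1.88, 19.6, 4.11 and 3.32 CPM, 7.72% of wild type (adjusted p = 0.000849), so 1 library, Aire_KO_429, held most of what was left. Reg4 kept 4.88, 3.21, 1.03 and 1.66 CPM, 7.12% of wild type (adjusted p = 1.76e-09). Each of these 12 values lay below every wild-type value of its gene. Reg1 kept 9.31% and Reg2 4.06% of wild type. Without library Aire_KO_429 the log2 change of Reg3b moved from -3.63 to -4.80 and that of Reg2 from -4.49 to -6.34, and without library Aire_KO_428 that of Reg3a moved from -4.31 to -5.55.

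Reg3g kept the largest share among the 5 members of the chromosome 6 cluster. The 4 Aire-/- libraries held 499, 435.3, 430 and 462 CPM, 3.59-fold below wild type (log2 change -1.74 ± 0.21, adjusted p = 0.000106). The groups did not overlap, but 27.9% of the wild-type level stayed, so that Reg3g in cells without AIRE was still more abundant than any other Reg gene was in wild type. Against Aire+/- the values were alike: 8 of 9 members fell (17.5% of tested genes were called lower), and the log2 change of Reg3g was -1.76 ± 0.19 (adjusted p = 5.90e-05).

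The Paneth products Defa21 and Lyz1 both fell. Defa21 had 2, 2, 0 and 0 counts in the Aire-/- libraries (0.388 ± 0.449 CPM), 37.9-fold below wild type (adjusted p = 9.59e-05). Lyz1 stood at 109, 130, 143 and 102 CPM against 231, 298 and 236 CPM, 47.5% of wild type (log2 change -0.98 ± 0.11, adjusted p = 4.81e-08). Its paralog Lyz2, the lysozyme of macrophages, rose to 727 ± 54.1 CPM from 577 ± 72.6 (log2 change 0.44 ± 0.10, adjusted p = 0.000761). The 2 lysozyme genes thus moved in opposite directions, and Lyz1 made up 14.3% ± 2.30 of their summed counts against 30.6% ± 0.56 in wild type, with no overlap.

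Lypd8 did not follow the other members. The Aire-/- libraries held 238, 352, 338 and 237 CPM and the wild-type libraries 262, 242 and 263 CPM, so the groups overlapped (log2 change 0.28 ± 0.18, adjusted p = 0.260).

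The NOD null line was set against Aire+/-. Of 8 members 7 fell and Lypd8 did not change past the test, where 9.11% of 13827 tested genes were called lower. The median log2 change was -4.17 with Reg3a at its bound, against -0.02 for all tested genes. Reg3a had no count in any of the 3 Aire-/- libraries and was at least 29.9-fold lower than its 14.1, 14 and 14.1 CPM in Aire+/- (adjusted p = 1.28e-05). Reg2 had 1 count left and was 40.6-fold lower (95% counting interval 7.02 to 1628, counting error only). Reg3g kept 334, 375 and 325 CPM of 1003, 1026 and 956 CPM, 34.6% (log2 change -1.38 ± 0.23, adjusted p = 0.000151). Lyz1 kept 47.1% and Lypd8 stood at 167 ± 19.1 CPM against 178 ± 28.1. On both strains Reg3g and Lyz1 were partly kept, and the strains were not tested against each other. Leaving out library 405 moved Reg1 from -4.74 to -5.86, Reg2 from -4.86 to -7.03 and Reg4 from -4.61 to -3.89, and leaving out library 406 moved Reg4 to -5.39.

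**Figure D2:**
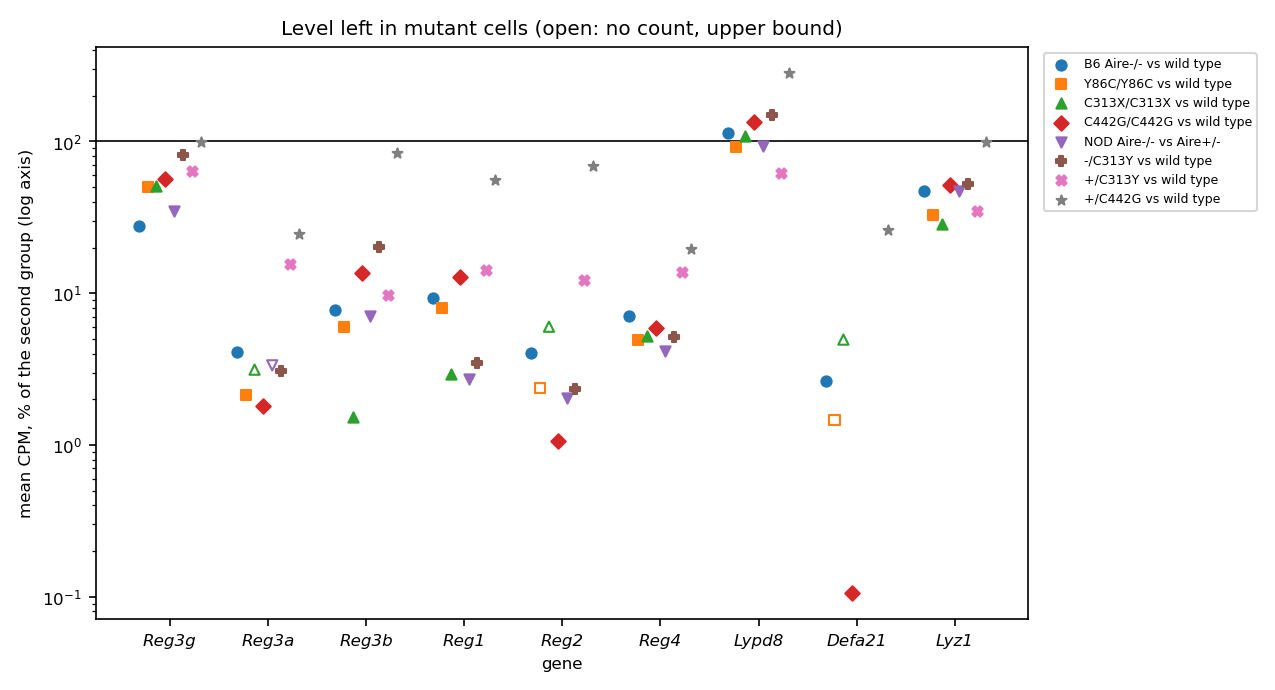
Mean CPM of each member in mutant cells as a percentage of the comparison's second group (log axis; 8 comparisons by marker shape and colour; line at 100%; open markers: no count in the mutant libraries, drawn at the upper bound from 3 counts). Reg3g (27.9% to 99.2%) and Lyz1 (28.4% to 99.2%) lie well above the other Reg genes and Defa21 in the homozygous and null groups, and Lypd8 lies from 61.7% to 282%.

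The next question was whether 2 copies of a point mutation act on these genes as the null alleles do. In Y86C/Y86C cells 8 of 9 members fell (27.9% of 13309 tested genes were called lower) with a median log2 change of -3.74 against -0.03 for all genes. Reg2 and Defa21 had no count in any of the 3 libraries and were at least 42.1-fold and at least 68.1-fold lower than in wild type. Reg3a fell 46.9-fold, from 35.6, 19.2 and 28.3 CPM to 0.277, 0 and 1.5 CPM (adjusted p = 1.74e-09). Reg3b kept 5.94%, Reg1 8.03%, Reg4 4.93% and Lyz1 32.6% of wild type. Reg3g kept 49.8%, with 1287, 1366 and 1439 CPM against 2452, 3039 and 2733 CPM (log2 change -0.76 ± 0.09, adjusted p = 3.30e-08). Lypd8 ranges overlapped (250 ± 39.8 against 274 ± 35.6 CPM, adjusted p = 0.536). Without homozygote 4 Reg4 moved from -3.95 to -4.84, without homozygote 5 Reg3b moved from -3.74 to -4.52 and Reg3a from -5.57 to -4.92, and without homozygote 9 Reg3a moved to -6.97.

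In C313X/C313X cells 7 of 9 members fell (15.2% of 13626 tested genes were called lower) and the median was -4.06 against -0.03. Reg3a, Reg2 and Defa21 had no count in any of the 3 libraries, and were at least 31.9-fold, 16.6-fold and 20.2-fold lower. Reg3b was left at 1.62, 1.92 and 0.633 CPM of 80.9, 139 and 51.1 CPM (adjusted p = 5.08e-05). Reg1 kept 2.96%, Reg4 5.21% and Lyz1 28.4% of wild type. Reg3g stood at 542, 558 and 618 CPM against 810, 1826 and 737 CPM. These groups did not overlap, and ranges lay wholly below wild type for 31.2% of tested genes. The change of -0.77 ± 0.31 on the log2 scale did not pass (adjusted p = 0.109), with wild-type library 6 far above the other wild types. Library 6 was also the highest of the wild types for Reg3b, Reg1, Reg4 and Lyz1. Without it Reg1 moved from -4.90 to -3.78 and Reg3a from -7.68 to -7.00. Without wild type 2 Defa21 moved from -7.34 to -6.49, and without homozygote 10 Reg1 moved to -5.89. Those for Reg3a and Defa21 are fitted values against groups with no count. Without wild type 2 or 6, 6 members were called, since Reg2 was then too low to be tested, and without wild type 7, 8 were called, since Reg3g then passed.

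In C442G/C442G cells 8 of 9 members fell (23.1% of 13624 tested genes were called lower) and Lypd8 rose (19.5% were called higher). The median was -2.76 against 0.00. Defa21 had 1 count in 6 libraries against 19.4, 56.6 and 52.4 CPM in wild type, a 948-fold difference (95% counting interval 169 to 37550, counting error only). Reg3a was at 0, 0, 0, 0.295, 0.561 and 1.09 CPM, 1.82% of wild type (adjusted p = 2.08e-10). Reg4 ranged from 2.44 to 4.80 CPM (median 3.36) against 46.7 to 69.1 CPM (adjusted p = 2.61e-16). Reg3b ranged from 0.800 to 41.3 CPM (median 5.34), and the highest, homozygote 93, still lay below the wild-type minimum of 73.7 CPM. Without homozygote 93 Reg3b moved from -2.66 to -3.78, Reg3a from -5.38 to -6.19 and Defa21 from -8.75 to -9.89. Reg3b did not pass without wild type 88 (adjusted p = 0.0727). Reg2, at 1 count in the 6 libraries, did not pass without wild type 88 or 89 or without any of homozygotes 80, 84, 90, 92 and 93 (adjusted p from 0.0508 to 0.122). Reg3g ranged from 1304 to 1746 CPM (median 1505) against 2262 to 3210 CPM, 56.5% of wild type (log2 change -0.63 ± 0.12, adjusted p = 4.86e-05).

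Reg3g thus kept 27.9% of wild type in B6 Aire-/-, 49.8% in Y86C/Y86C, 51% in C313X/C313X and 56.5% in C442G/C442G. A joint fit of the 4 B6 tables tested whether each effect differed from that of the null allele, each set against its line's wild type. Each allele has its own line and table, so its part cannot be told apart from that of line and table. Reg3g was the 1 member of 9 called in each of these 3 tests. The log2 effect on Reg3g was higher than that of the null by 1.09 ± 0.29 for Y86C (adjusted p = 0.0373, with 1.11% of 14547 genes called higher), by 1.06 ± 0.29 for C313X (adjusted p = 0.0374, 1.91% called higher) and by 1.16 ± 0.27 for C442G (adjusted p = 0.0125, 1.55% called higher). All 3 share the Aire-/- and wild-type libraries of the null line. The C442G call held without each single library. The Y86C call was lost without any of null-line libraries Aire_wt_430, Aire_wt_432, Aire_wt_434, Aire_KO_429, Aire_KO_431 and Aire_KO_436 or Y86C-line libraries 2, 3, 4, 5 and 9, and the C313X call without any of the same 6 null-line libraries or C313X-line libraries 2, 7, 1, 10 and 14 (differences from 0.86 to 1.14, adjusted p from 0.0519 to 0.0984). With RLE factors in place of TMM the Y86C difference was 1.02 (adjusted p = 0.0578). For the other 8 members no difference between a homozygous point mutation and the null passed, and the SE reached 3.15 for Reg2, 2.87 for Reg3b, 2.47 for Defa21 and 2.18 for Reg3a, so differences of that size could not be seen.

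**Figure D3:**
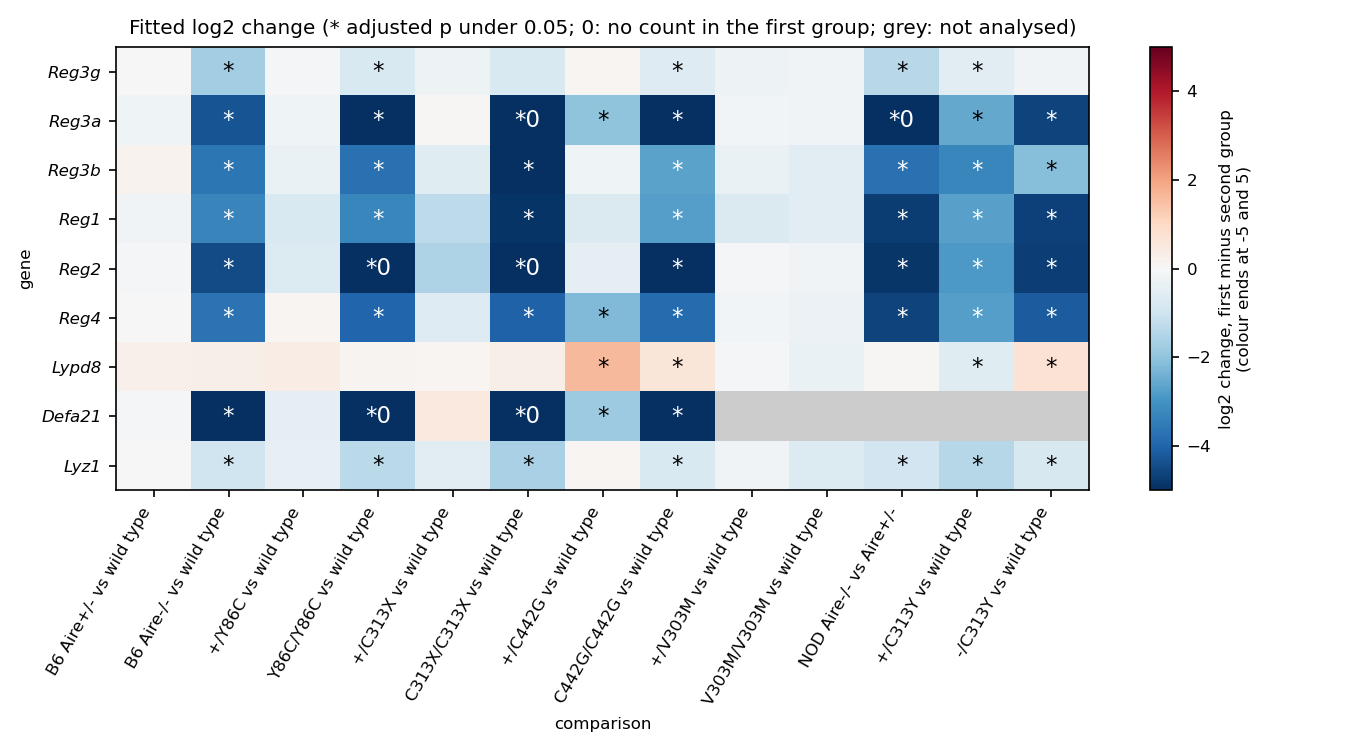
Fitted log2 change of each member (rows) in 13 comparisons with the wild type or heterozygote of the same line (columns). Blue is lower and red higher in the first-named group, a star marks an adjusted p under 0.05 and a 0 marks a group with no count, where the fitted value is not a measured fold. Among heterozygote columns only +/C442G and +/C313Y hold stars, and both V303M columns hold none.

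The third question was whether 1 mutant copy is enough. In B6 Aire+/- cells 0 of 9 members passed (0 at an unadjusted p under 0.05 and 0 with DESeq2, with 0.48% of genes called either way). Reg3g there stood at 1079, 1928, 1430, 1601 and 2201 CPM, on both sides of wild type. In +/Y86C cells 0 of 9 passed with edgeR, 4 had an unadjusted p under 0.05 and DESeq2 called 1, Reg1 (3.37% of genes were called either way with edgeR). Reg1 was at 37.0 ± 11.3 against 63.7 ± 16.6 CPM (n = 3 each, edgeR adjusted p = 0.114). In +/C313X cells, with 2 libraries, 0 of 9 passed (1 at an unadjusted p under 0.05 and 0 with DESeq2), as did 0% of all genes.

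In +/C442G heterozygotes 4 of 9 members passed. Reg3a, Reg4 and Defa21 fell (13.4% of genes were called lower) and Lypd8 rose (13.1% called higher), while Reg3g, Reg3b, Reg1, Reg2 and Lyz1 did not pass. Reg2 was at 0.916, 0.432, 15.2, 0.477 and 0 CPM against 1.71, 5.19 and 7.97 CPM in wild type, so heterozygote 85 held nearly all of it. Without that library Reg2 was too low to be tested, and Reg1 passed. Reg4 dropped to 13.3, 6.91, 11.5, 11.9 and 12 CPM from 69.1, 55.5 and 46.7 CPM, 19.5% of wild type (log2 change -2.21 ± 0.18, adjusted p = 4.03e-10). Reg3a dropped to 7.79, 5.18, 2.97, 2.86 and 3.08 CPM from 9.14, 22.7 and 21.6 CPM, 24.6% of wild type (adjusted p = 9.23e-05). Defa21 dropped to 5.96, 13.4, 13.8, 11.2 and 11.7 CPM, 26.2% of wild type (adjusted p = 8.64e-06). For all 3 the groups did not overlap, with mutant ranges wholly below wild type for 17.8% of tested genes, and the homozygotes lay lower still: in C442G/C442G against +/C442G, 8 of 9 members fell (14.1% of genes were called lower), with Reg4 at -1.65 ± 0.22 (adjusted p = 7.28e-07). In that comparison Reg3b passed at 0.0350 but not without heterozygote 81 or 82 or homozygote 80, 83, 84, 90 or 92 (adjusted p from 0.0609 to 0.0963). Reg3g in +/C442G ran from 2256 to 2982 CPM, inside the wild-type range of 2262 to 3210 except for 1 library just below it. In the joint fit the effect of 1 C442G copy on Reg4 was lower than that of 1 null copy by 2.24 ± 0.36 (adjusted p = 0.000185, 3.51% of genes called lower). Allele, line and table changed together in this fit. For Reg3a and Defa21 the differences were -1.76 ± 0.64 and -1.73 ± 0.56, and neither passed (adjusted p = 0.0985 and 0.0621).

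Lypd8 took the opposite course in the C442G line. The heterozygotes held 1008, 892, 1102, 1284 and 926 CPM against 386, 391 and 330 CPM in wild type, 2.82 times the wild-type mean (log2 change 1.63 ± 0.13, adjusted p = 2.42e-10). The homozygotes ranged from 450 to 586 CPM (median 485), 1.34 times the wild-type mean (log2 change 0.62 ± 0.12, adjusted p = 0.000102). All 5 heterozygote libraries lay above all 6 homozygote libraries, and these above all 3 wild types. Ranges lay wholly above wild type for 7.9% of tested genes in +/C442G and 11.2% in C442G/C442G. The level of Lypd8 was thus highest with 1 mutant copy and fell again with 2 (homozygote against heterozygote -1.01 ± 0.10, adjusted p = 3.75e-09). The effect of 1 C442G copy exceeded that of 1 null copy by 1.37 ± 0.32 (adjusted p = 0.00872, 2.24% of genes called higher). Here too allele, line and table changed together. In the same heterozygotes Lyz2 rose by 0.67 ± 0.13 (adjusted p = 0.000165) and Lyz1 stayed at 352 ± 41.3 against 355 ± 32.1 CPM.

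**Figure D4:**
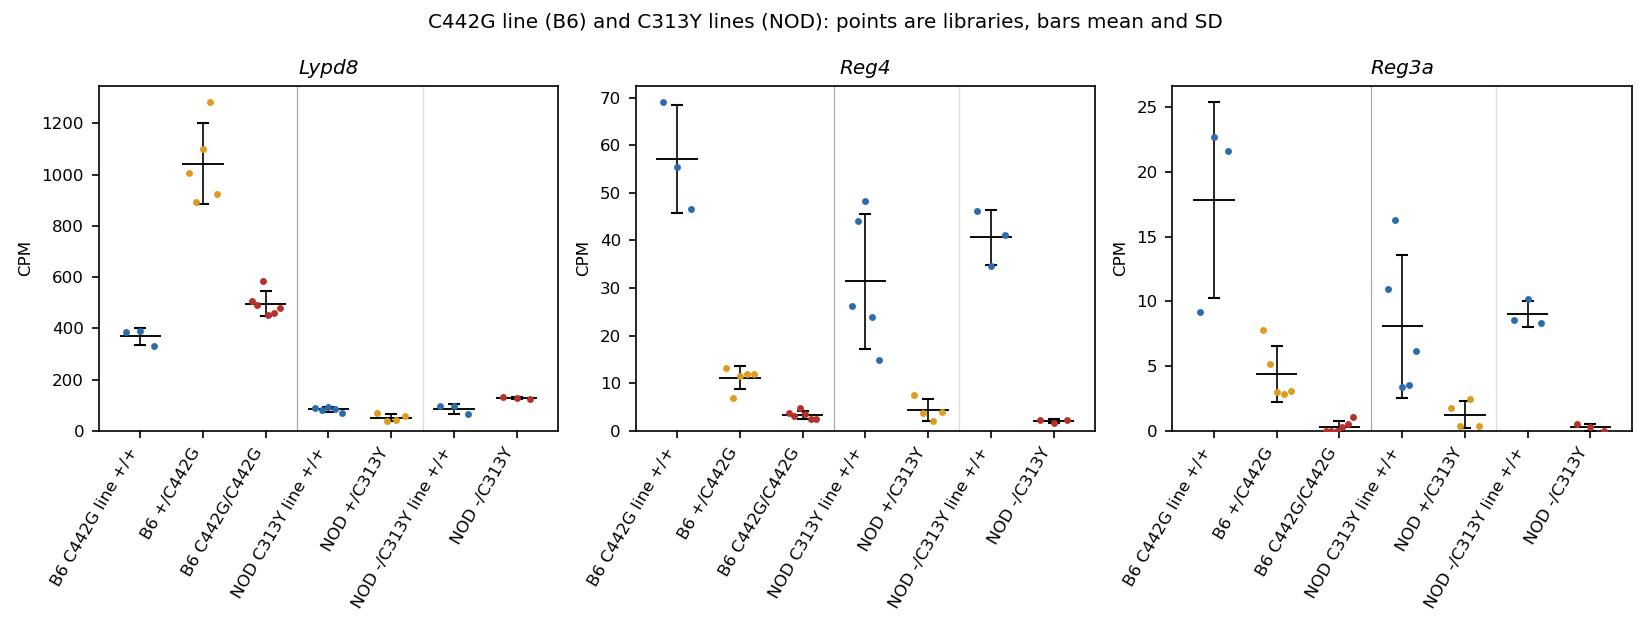
CPM of Lypd8, Reg4 and Reg3a by library in the C442G line (B6) and the 2 C313Y title forms (NOD), with mean and SD bars. Lypd8 is highest in +/C442G (892 to 1284 CPM) and lower in +/C313Y than in its wild type, while Reg4 and Reg3a step down from wild type to heterozygote to homozygote in the C442G line.

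On NOD the question of 1 mutant copy was asked with C313Y. In +/C313Y cells 8 of 8 members fell (11% of 13827 tested genes were called lower), with a median of -2.63 against 0.01 for all genes. Reg3b dropped to 3.22, 0.760, 4.05 and 3.21 CPM from 46.3, 38.0, 27.1, 20.4 and 11.7 CPM, 9.79% of wild type (adjusted p = 2.30e-05). Reg4 dropped to 7.51, 3.80, 2.03 and 4.01 CPM from between 14.8 and 48.3 CPM, 13.8% of wild type (adjusted p = 2.89e-06). Reg1, Reg2 and Reg3a kept 14.2%, 12.3% and 15.5%, and without heterozygote 75 Reg2 moved from -2.86 to -3.68. Lyz1 kept 35.1% (51.1, 74.5, 44.6 and 64.2 CPM against 141 to 201 CPM), and Lyz2 did not change past the test (427 ± 80.0 against 413 ± 54.1 CPM, adjusted p = 0.493). For these 6 members the groups did not overlap, where ranges lay wholly below wild type for 10.1% of tested genes. Reg3g (582, 397, 338 and 356 CPM against 446 to 836 CPM) and Lypd8 (69.0, 36.9, 41.3 and 59.0 CPM against 67.8 to 94.3 CPM) overlapped with wild type. Reg3g passed at an adjusted p of 0.0487 and Lypd8 at 0.0132 (log2 changes -0.54 ± 0.19 and -0.59 ± 0.17). Reg3g did not pass without wild type 45, 47, 52 or 80 or heterozygote 53, 73 or 75, nor without the 2 wild types titled C313T (adjusted p = 0.228), with all 8 NOD wild types (0.0596), without a filter on low counts (0.0507) or with only these 2 groups in the fit (0.0766). Lypd8 did not pass without heterozygote 53 or 73 (0.0732 and 0.0691).

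In -/C313Y cells, with no wild-type copy of Aire, 6 of 8 members fell (12.9% of genes were called lower), Lypd8 rose (9.83% called higher) and Reg3g did not pass. The median of the fitted log2 changes was -3.14, against -0.03 for all genes. Reg3a had 3 counts in 3 libraries against 8.58, 10.2 and 8.29 CPM in wild type, a 29.8-fold difference (95% counting interval 9.83 to 148, counting error only). Reg1 kept 3.47%, Reg4 5.13% and Reg3b 20.3% of wild type, and Lyz1 52.2% (114, 125 and 92.3 against 184, 276 and 175 CPM, adjusted p = 0.00168). Without mutant 1 Reg1 moved from -4.68 to -5.43, Reg2 from -4.73 to -6.54 and Reg3a from -4.63 to -5.45, and without mutant 2 Reg1 moved to -4.06. Reg3g stood at 492, 459 and 274 CPM against 643, 488 and 385 CPM (adjusted p = 0.627). Lypd8 stood at 131, 127 and 123 CPM against 95, 95.2 and 63.8 CPM, all above wild type, which held for 12.7% of tested genes. Its log2 change was 0.71 ± 0.20 (adjusted p = 0.00797), but it did not pass without wild type 3 (adjusted p = 0.0762). Lypd8 thus moved in opposite directions in the 2 C313Y genotypes. After this had been seen, the difference of the 2 effects was tested, and it was -1.31 ± 0.26 (adjusted p = 0.0163, 0.231% of genes called lower). It did not pass without mutant 1 (0.0514). No other member passed that test. Each C313Y genotype had its own title form and its own wild types, so the parts of genotype and title form cannot be told apart.

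V303M gave the one pair of comparisons on NOD with no member called. In V303M/V303M, 0 of 8 passed with edgeR and 0 with DESeq2, and 3 had an unadjusted p under 0.05 (0.0657% of 13700 genes were called either way). In +/V303M, 0 of 8 passed with edgeR, 0 with DESeq2 and 0 at an unadjusted p under 0.05 (0% of genes called). Homozygote against heterozygote gave the same 3 counts of 0 (0% of genes called). Reg3g held 834, 1076 and 776 CPM in homozygotes and 1066, 1097 and 919 CPM in wild type. Reg3a, at or near 0 in the null, -/C313Y and other homozygous cells above, held 19.8, 12.4 and 7.95 CPM against 16.3, 8.58 and 21.9 CPM. The largest fitted difference was that of Lyz1, at 191, 326 and 134 against 326, 348 and 389 CPM (log2 change -0.67 ± 0.24, adjusted p = 0.670), and it did pass without homozygote 42, which made 1 member called. Over all genes 9 were called, 60 without homozygote 42, 0 without homozygote 53 and 1 without wild type 49.

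**Figure D5:**
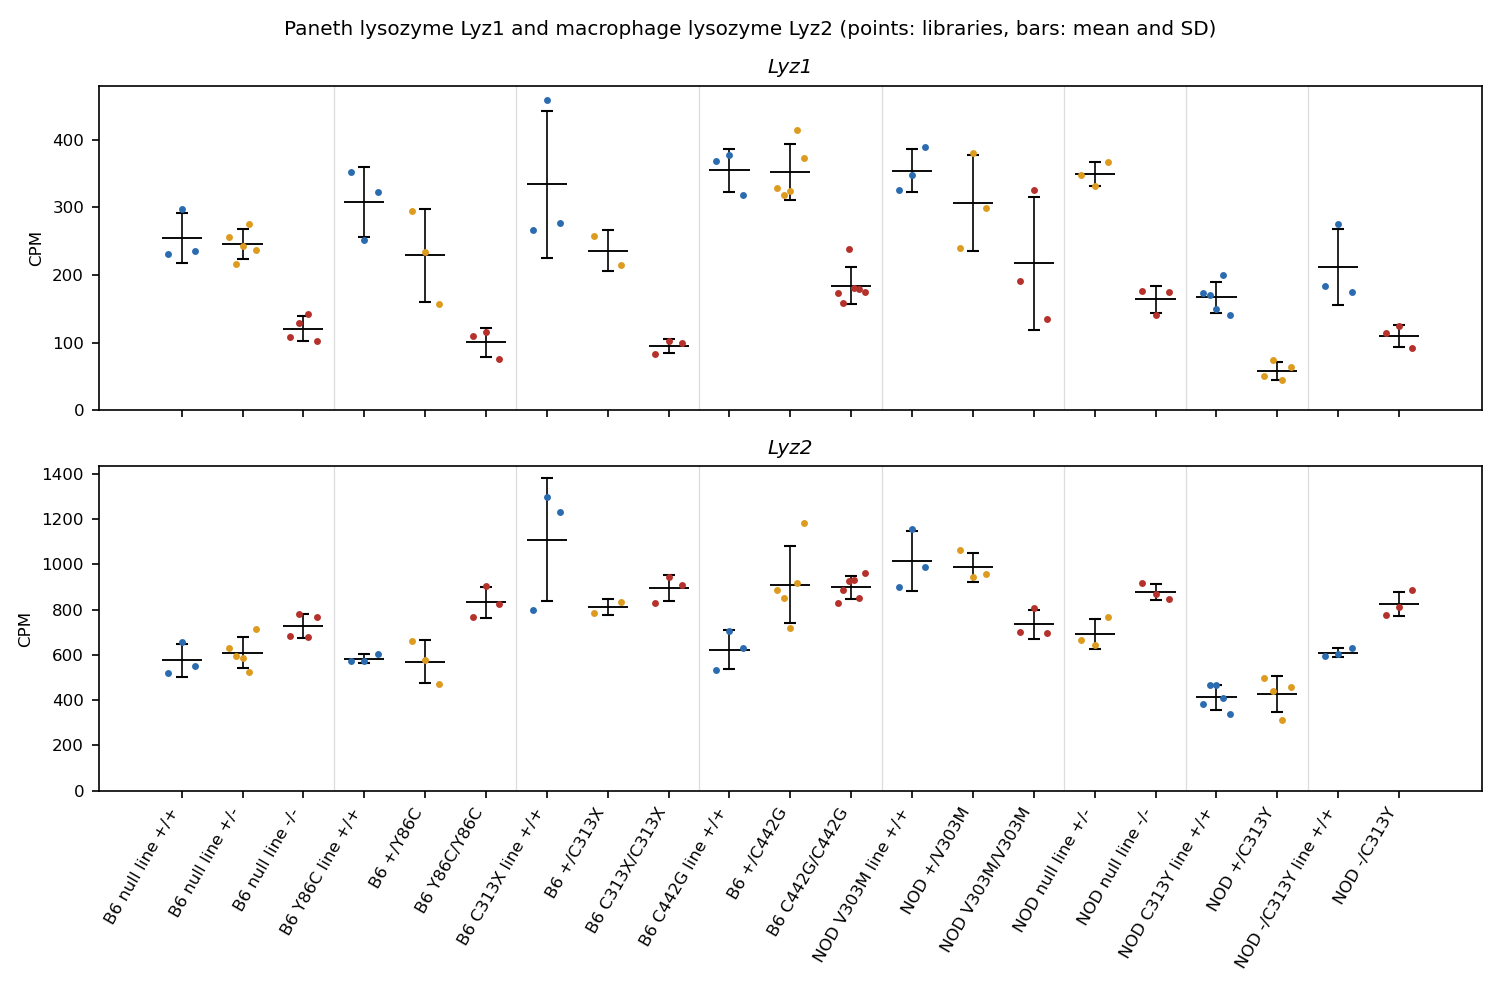
CPM of Lyz1 (top) and Lyz2 (bottom) by library in the 21 groups, with mean and SD bars. Lyz1 falls in Aire-/-, Y86C/Y86C, C313X/C313X, C442G/C442G, +/C313Y and -/C313Y (for example to 121 from 255 CPM in B6 Aire-/-), while Lyz2 in the same cells does not fall past the test (727 against 577 CPM).

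Other gut genes, from lists of genes expressed in each gut cell type, moved as follows in B6 Aire-/- against wild type, where 18.9% of all tested genes were called lower and 17.7% higher. Of 9 tested Paneth genes other than the members, 4 fell and 0 rose, with a median log2 change of -0.40, among them Ang4, a ribonuclease of Paneth and goblet cells, at 20.1 ± 7.63 against 95.05 ± 26.2 CPM (adjusted p = 3.22e-06). Of 16 goblet cell genes 14 fell and 1 rose (median -2.26), among them the trefoil peptide gene Tff3 at 4.45 ± 1.86 against 165 ± 6.52 CPM (adjusted p = 1.97e-08). Of 18 enterocyte genes 11 fell and 2 rose (median -1.06), with Fabp2, the intestinal fatty acid carrier, at 2.95 ± 1.14 against 32.5 ± 6.13 CPM. Of 16 genes from Lypd8's own Ly6 family 6 fell and 0 rose (median -0.71), with Psca at 6.15 ± 1.66 against 124 ± 18.9 CPM and Lypd2 at 7.85 ± 4.93 against 122 ± 18.9 CPM. Both of those relatives fell where Lypd8 did not pass. Of 19 genes of the IL-22 pathway and of gut transcription factors, which drive Reg3 genes in the intestine, 5 fell and 4 rose (median -0.02), shares close to those of all tested genes. Cdx2, the factor that specifies intestine, was at 0.267 ± 0.308 against 6.91 ± 1.72 CPM (adjusted p = 3.61e-05), and Il1rn, an interleukin-1 antagonist, rose to 314 ± 3.32 from 160 ± 3.51 CPM. Among other antimicrobial genes 14 of 22 fell and 3 rose (median -1.48), with the acute phase gene Saa2 at 2.25 ± 1.28 against 44.6 ± 8.03 CPM and the protease inhibitor gene Slpi at 6.06 ± 2.41 against 76.0 ± 25.8 CPM.

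In +/C442G, where Lypd8 rose, the enterocyte list split. Of 18 tested genes 8 rose and 3 fell, with a median of 0.29. The genes that rose were Mttp, which loads lipid onto lipoproteins (log2 change 1.62 ± 0.16), Apoc3, Apob, Sis, Guca2a, Vil1, Guca2b and Mep1a, and those that fell were Alpi, Fabp2 and Apoa1. They are named after their values were seen. In C442G/C442G against +/C442G 16 of the 18 fell and 0 rose. Beside this, in +/C442G against wild type 10 of 16 goblet genes fell and 1 rose, and 5 of 11 Paneth genes fell and 0 rose.

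Markers of other cells in the sort moved beside these results. Neutrophil markers fell wherever most members fell. In B6 Aire-/- 7 of 10 tested fell and 0 rose, and their summed level over the 11 listed was 179 to 489 CPM against 1325 to 3163 CPM in wild type, with none of the 11 at 0 counts. In Y86C/Y86C 9 of 9 fell (128 to 159 against 2061 to 2501 CPM, with Csf3r at 0), in C313X/C313X 8 of 8 (67.0 to 108 against 677 to 992 CPM), in C442G/C442G 9 of 9 (211 to 406 against 1590 to 2294 CPM, with Prtn3 at 0) and in +/C442G 6 of 9 (864 to 1132 CPM). In NOD Aire-/-, +/C313Y and -/C313Y 7 of 8 fell in each. Neutrophil sums also lay wholly below wild type in the V303M line, where no member was called. They were 575 to 1055 CPM in V303M/V303M and 869 to 1262 in +/V303M against 1270 to 1374 in wild type. Of 9 tested neutrophil markers 0 fell in each of these groups. The macrophage and dendritic cell list, which holds Lyz2, summed to 1743 to 2238 CPM in B6 Aire-/- and 1498 to 1765 CPM in wild type, and 4 of its 17 genes rose and 3 fell. In C313X/C313X 10 of 16 tested genes of that list fell and 0 rose (2573 to 2644 against 2823 to 5038 CPM). Of 14 thymocyte markers 7 fell and 0 rose there (213 to 269 against 356 to 444 CPM). In NOD Aire-/- 6 of 17 macrophage and dendritic cell genes fell and 2 rose. Of 13 thymocyte markers 6 fell and 0 rose in NOD Aire-/- (135 to 176 against 219 to 406 CPM). In Y86C/Y86C 6 of 11 thymocyte markers fell and 2 rose. In the C442G line the macrophage and dendritic cell list summed to 1718 to 2251 CPM in heterozygotes, where Lypd8 was highest. It summed to 1874 to 2076 CPM in homozygotes and to 1484 to 1818 CPM in wild types. Of its 16 tested genes 9 fell and 4 rose in C442G/C442G. In +/C442G 3 of 12 thymocyte markers fell and 0 rose (139 to 165 against 200 to 341 CPM). Fibroblast and endothelial markers summed to 223.5 to 357 CPM in +/C442G and 277 to 413.5 in C442G/C442G against 141 to 184 in wild type. In Y86C/Y86C they summed to 432.5 to 518 against 251 to 298 CPM, while 5 of 7 tested fell and 1 rose. In the other groups with called members these sums overlapped the comparison group. Cortical epithelial (cTEC) markers summed to 4401 to 5513 CPM in B6 Aire-/- against 2554 to 2646 in wild type (2 of 6 tested rose, 1 fell), to 6925 to 7997 against 3779 to 4175 in Y86C/Y86C (3 of 7 rose, 3 fell) and to 5218 to 6363 against 3248 to 4242 in C442G/C442G (3 of 9 rose, 2 fell), with no overlap. The mature mTEC list moved as well, to 56000 to 74350 CPM in B6 Aire-/- from 51000 to 52880 (12 of 16 rose, 2 fell), to 72480 to 78900 from 41440 to 48380 in Y86C/Y86C (12 rose, 3 fell) and to 77210 to 99690 from 50740 to 61590 in C442G/C442G (10 rose, 2 fell). In the other groups with called members the cTEC sums lay wholly above the comparison group too. They were 4248 to 5552 CPM in +/C442G (wild type 3248 to 4242). In C313X/C313X they were 4178 to 5450 against 3220 to 3708 CPM. On NOD they were 2019 to 2440 against 1670 to 1842 CPM in Aire-/- and 1998 to 2677 against 1177 to 1787 in +/C313Y. In -/C313Y they were 2492 to 2756 against 1279 to 1636 CPM. The cTEC sums also lay wholly above wild type in some groups where no member was called. They were 2794 to 3502 CPM in B6 Aire+/- and 5461 to 5835 in +/Y86C. In the V303M line they were 1445 to 1572 in +/V303M and 1568 to 2061 in V303M/V303M (wild type 1323 to 1431). The mature mTEC sums did so too, at 53620 to 58800 CPM in B6 Aire+/- and 51780 to 56210 in +/Y86C. They were 51120 to 55740 CPM in +/V303M and 47820 to 51180 in V303M/V303M (V303M wild type 44530 to 47440). In +/C313X both overlapped wild type. The part of all these markers in the members' changes was not tested.

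Across all 73 libraries, each centred on the mean of its table, the 6 Reg genes varied together on the log2(CPM + 1) scale, with Pearson's r between 0.768 and 0.910 for the 15 pairs. Lyz1 followed them with r from 0.693 to 0.798. Lypd8 did not, with r from -0.0279 to 0.202 against the Reg genes and 0.443 against Lyz1. Of 11671 candidate genes the ones most like Lypd8 were Vil1, which bundles actin in microvilli (r = 0.788), Ces2e (0.754) and Gpa33, a surface antigen of intestinal epithelium (0.736). Those most like Reg4 were Phgr1 (0.955), Lcn8 (0.951) and Cytl1 (0.951), and those most like Reg3g were Pcp4 (0.843), Ces1f (0.836) and Gkn1 (0.834). Libraries of a group share genotype and table, and both genes of a pair share library and depth, so these values describe the data only.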

How the data were processed

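Sorted mTEChi were profiled by bulk MARS-seq. The authors deposited raw counts per gene for each library in 6 tables, per the file headers, and the values were whole numbers. The submitters' processing notes name bcl2fastq, cutadapt, STAR 2.4.2a, HTSeq and DESeq2 and the mm10 build. How these tools were set, which gene models were counted, and whether strand and molecular identifiers entered the counts is not given in the sources used here. The shared NOD table also holds log2 values after ComBat, per the file headers, and these deposited values were not used.

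CPM were computed from the counts and the library total. Each table was fitted on its own with edgeR 4.0.16 (quasi-likelihood test, TMM factors, R 4.3.3, limma 3.58.1) over all of its groups after a filter on low counts, with Benjamini-Hochberg adjustment over all tested genes and a threshold of 0.05. Each comparison stayed within 1 table and 1 title form, except that 2 of the 5 wild types set against +/C313Y are titled C313T. Comparisons of homozygote, heterozygote and wild type in a line share libraries. A joint fit over the 4 B6 tables tested 6 differences of effects between lines, in which allele, line and table changed together. DESeq2 1.42.0, RLE factors, no filter, fits of only the compared groups and each library left out were the alternatives. The scripts were tested on simulated data. Folds against groups with no count use a floor of 3 counts over the group, and ratios with 1 to 3 counts carry an exact 95% interval, both for counting error only.

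The members and the 15 other gene lists were chosen with earlier results of these data known. Named beside the members are, from each list, up to 3 genes with the largest log2 change among those called in B6 Aire-/- against wild type with at least 5 CPM in the higher group, and the 3 genes most correlated with a member. Sequences are from RefSeq on GRCm38.p6 and were aligned with Biopython 1.88. No 2 libraries of a group agreed within sampling noise. The 1 library whose labels gave 2 genotypes was left out of every comparison.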

Additional observations from a re-analysis of the deposited data

Results flagged for a closer look

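Of 52 sets of a member in a group of 4 to 10 libraries, 9 held 1 library that stood apart from the rest of its group. The rule flags about 1 in 20 by chance for normally distributed values, which CPM near 0 are not. A single count among libraries at 0 is always flagged, so the 9 cannot be set against that rate. In B6 Aire-/-, library Aire_KO_429 was high for Reg3b (19.6 CPM, next 4.11) and for Reg2 (3.61 CPM, next 0.376). In C442G/C442G, library 93 was high for Reg3b (41.3 CPM, next 11.8) and for Defa21 (0.272 CPM, a single count, next 0), library 80 for Reg2 (0.314 CPM, a single count, next 0) and library 84 for Lyz1 (238 CPM, next 181). In Aire+/- library Aire_het_437 was high for Reg2 (50.2 CPM, next 20.6), and in +/C442G library 85 was high for Reg2 (15.2 CPM, next 0.916) and library 82 low for Reg4 (6.91 CPM, next 11.5).

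Effects differed between genotypes by a test of the difference in 6 cases. In all but the C313Y case allele, line and table changed together. The C313Y case stayed within the shared NOD table, but genotype and title form changed together in it. The effect of 1 C442G copy minus that of 1 null copy was 1.37 for Lypd8 and -2.24 for Reg4 (log2). The effect of 2 mutant copies minus that of 2 null copies on Reg3g was 1.09 for Y86C, 1.06 for C313X and 1.16 for C442G. The +/C313Y effect minus the -/C313Y effect on Lypd8 was -1.31.

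The library in no comparison, Aire_wt_438, held 22.4 CPM of Defa21, above the highest wild type of its table (19.7 CPM).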

How the results depend on the processing

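Of called member values, 379 kept their side of the threshold under an alternative that used all libraries and 7 lost it. With 1 library left out 686 kept it and 54 lost it. No called value changed direction, while 108 uncalled ones changed sign and remained uncalled. Values that fell under the filter in an alternative were not tested there and are not among these counts. The count of members called in +/Y86C was 1 (Reg1) with DESeq2 against 0, and 0 to 1 with a library left out. In +/C313Y it was 5 against 8 with only the compared groups in the fit (Reg3g lost its call, and Reg2 and Reg3a were under the filter on low counts there and not tested). For V303M/V303M it was 0 to 1 with a library left out. The Reg3g difference between Y86C and the null gave 0 calls with RLE factors, and 0 to 1 with a library left out, as did the C313X difference and the Lypd8 difference between the C313Y genotypes. Over all genes, V303M/V303M had 9 calls with edgeR, 43 with DESeq2, 1 with only the compared groups and 0 to 60 with a library left out. Against its heterozygote it had 0, 6 with DESeq2, 1 with only the compared groups and up to 5 with a library left out. +/V303M had 0, and 2 with DESeq2. +/C313Y had 2402, and 1384 with only the compared groups. The causes were not tested. The values most limited by depth are those of Reg2, Reg3a and Defa21, with 0 to 5 counts in many mutant libraries.

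Wild type and -/C313Y share the replicate numbers 1 to 3. The deviations of same-numbered libraries correlated at 0.0637, -0.0377 and 0.158, and those of the other pairs at -0.142 to 0.083. With 3 libraries per group this cannot show whether the numbers mark pairs, and the main fit left them unpaired. With the replicate block 6 members were called against 7, since Reg2 was under the filter there and not tested. No other comparison shares numbers in a way that allows a paired fit.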

Other observations

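One library of the B6 null table is titled as wild type while its genotype label reads Aire-/-, and it was put in no group. It held 1565 CPM of Reg3g, 18.4 of Reg3a, 41.7 of Reg3b, 47.2 of Reg1, 24.4 of Reg2, 41.2 of Reg4, 193 of Lypd8, 22.4 of Defa21 and 268 of Lyz1.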
